A study of Mus musculus with 10 samples.

Results

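The primary granule protein genes described here are Mpo, Elane, Prtn3, Ctsg, Prss57, Ms4a3, Bpi, Cst7, Fcnb and Igfbp4, 10 genes named for this purpose out of the 19938 genes with a probe set of their own on the arrays. Each has 1 probe set that names no other gene, and 9 of the 10 passed the filter on low signals, which kept 14070 genes for testing. RNA came from neutrophils enriched from the marrow of 10-week-old C57bl/6 mice, labelled as female, by recovering the cells that collect between a lighter and a denser layer of a Percoll gradient. The 10 Affymetrix arrays make up 4 groups: fMLP-stimulated lcn2 knockout (2 arrays), fMLP-stimulated wild type (2), unstimulated lcn2 knockout (3) and unstimulated wild type (3). Lcn2 encodes lipocalin 2, a granule protein that binds iron carriers of bacteria, and the series asks what it does in resting and stimulated neutrophils. fMLP is a formylated peptide of the bacterial kind that attracts and activates neutrophils, here given for 20 minutes at a concentration of 10 micromolar and a temperature of 37 degrees. The labels name neither the allele of the knockout nor whether replicates were separate animals or cultures, so p-values measure the spread between these arrays, which may be technical. Density separation enriches neutrophils without selecting for a surface marker, and no incubation of the unstimulated cells is described.

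Primary, or azurophil, granules are the first granules that a developing neutrophil makes, at the promyelocyte stage. The genes of their proteins are transcribed strongly at that stage and are then shut off, while the proteins stay in the granules of the mature cell, so their mRNA in a marrow sample marks immature cells. Later stages make secondary granules with proteins such as lactoferrin, and stimulated mature neutrophils release granule proteins without needing new mRNA.

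The members differ in what they encode. Mpo encodes myeloperoxidase, which makes hypochlorous acid from hydrogen peroxide. Elane, Prtn3, Ctsg and Prss57 encode the neutrophil serine proteases neutrophil elastase, proteinase 3, cathepsin G and NSP4. Bpi encodes a lipopolysaccharide-binding antibacterial protein, and Fcnb encodes ficolin B, a lectin that can start the complement cascade. Cst7 encodes cystatin F, an inhibitor of the protease cathepsin C, which activates the granule serine proteases. Ms4a3 encodes a membrane protein of granulocyte and monocyte progenitors. Igfbp4 encodes a secreted protein that binds insulin-like growth factors and is not itself an established granule protein. On the mouse genome GRCm38.p6, Prss57 (chr10:79781474-79794684), Prtn3 (chr10:79879667-79883174) and Elane (chr10:79886312-79888216) lie close together on chromosome 10. Mpo lies at chr11:87793784-87804412, Igfbp4 at chr11:99040005-99052655, Ctsg at chr14:56099885-56102574 and Ms4a3 at chr19:11629499-11640851. Fcnb (chr2:28076479-28084910), Cst7 (chr2:150570415-150578944) and Bpi (chr2:158258063-158284533) lie on chromosome 2.

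The 250 bases before an annotated transcript start were available from RefSeq for 9 of the 10 members. For Fcnb, Bpi and Igfbp4 this start lies inside the gene span given above, so their windows overlap that span. The 6 sequences printed here are those that hold the letters AGGAAGT, printed in capitals. AGGAAGT is a binding sequence of the Ets family, which includes PU.1, a regulator of myeloid genes. All sequences run 5′ to 3′ on the strand of the gene, from GRCm38.p6. They cover chr11:87793534-87793783 (plus strand), chr10:79886062-79886311 (plus), chr10:79879417-79879666 (plus), chr14:56102575-56102824 (minus), chr2:150570165-150570414 (plus) and chr2:28084879-28085128 (minus).
Mpo: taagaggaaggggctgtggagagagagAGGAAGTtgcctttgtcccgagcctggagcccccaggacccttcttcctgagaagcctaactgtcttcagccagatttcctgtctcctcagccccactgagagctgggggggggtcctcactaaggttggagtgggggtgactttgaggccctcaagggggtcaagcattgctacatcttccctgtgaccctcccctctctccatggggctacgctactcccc
Elane: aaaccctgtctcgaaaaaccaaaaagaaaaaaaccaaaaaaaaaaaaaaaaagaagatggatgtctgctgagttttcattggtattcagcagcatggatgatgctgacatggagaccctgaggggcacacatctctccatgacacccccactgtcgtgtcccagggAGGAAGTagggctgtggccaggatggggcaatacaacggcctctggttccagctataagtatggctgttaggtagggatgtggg
Prtn3: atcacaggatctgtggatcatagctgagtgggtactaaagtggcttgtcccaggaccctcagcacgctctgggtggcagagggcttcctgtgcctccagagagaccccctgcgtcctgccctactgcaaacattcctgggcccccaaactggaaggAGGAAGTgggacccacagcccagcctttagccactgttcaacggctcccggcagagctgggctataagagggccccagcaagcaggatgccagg
Ctsg: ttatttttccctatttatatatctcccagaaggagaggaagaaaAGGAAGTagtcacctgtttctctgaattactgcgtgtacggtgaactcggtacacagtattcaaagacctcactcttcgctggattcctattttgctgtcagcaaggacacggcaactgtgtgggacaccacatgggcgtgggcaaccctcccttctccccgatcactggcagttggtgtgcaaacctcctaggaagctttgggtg
Cst7: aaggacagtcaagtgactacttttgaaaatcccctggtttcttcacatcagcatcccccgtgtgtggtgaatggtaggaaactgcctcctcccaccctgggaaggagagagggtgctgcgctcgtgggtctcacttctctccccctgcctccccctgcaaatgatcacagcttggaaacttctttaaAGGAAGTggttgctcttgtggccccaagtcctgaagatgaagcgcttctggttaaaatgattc
Fcnb: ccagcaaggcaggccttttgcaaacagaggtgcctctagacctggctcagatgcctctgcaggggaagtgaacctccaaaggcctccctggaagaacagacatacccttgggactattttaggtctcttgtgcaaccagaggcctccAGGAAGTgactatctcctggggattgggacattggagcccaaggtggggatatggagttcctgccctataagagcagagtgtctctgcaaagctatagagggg
The first base of the match lies 223 bases before the transcript start in Mpo, 84 in Elane, 94 in Prtn3, 206 in Ctsg, 63 in Cst7 and 103 in Fcnb. Searched on both strands, AGGAAGT was found in 6 of these 9 promoters and in 7.69% of all 32851 promoters of the same length. Among 8 further letter strings searched in the same way, the overlapping Ets string GAGGAA occurred in 5 of the 9 (23.25% of all promoters), the CEBP string TTGCNNAA in 1 (9.56%), the MYB string CAACTG in 1 (11.14%) and the RUNX string TGTGGT in 2 (14.05%). The looser forms TTNNGNAA and TTNNNNAA each occurred in 3 (36.85% and 57.67%), AACNG in 8 (74.19%) and TGNGGT in 3 (40.09%). Each looser form also counts the matches of the stricter one. The members were counted once per gene, the percentages over all promoters. Over 11148 tested genes, counted once each, every string was rarer. There AGGAAGT occurred in 7.49%, TTGCNNAA in 7.62%, TTNNGNAA in 29.19% and TTNNNNAA in 46.99%. These matches describe the letters in these windows and show no binding.

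The arrays were not alike, and this bears on every value below. Values are RMA signals on a log2 scale, and the median of all of them was 8.18. The interquartile range over all probe sets was 1.64 to 1.68 on the 4 arrays of unstimulated replicates 1 and 2 (called array set 1) and 2.47 to 2.59 on the other 6 (array set 2), namely the 4 fMLP arrays and unstimulated replicate 3 of each genotype. These sets are read from the values and are not in the labels. No fMLP array lies in set 1, so fMLP is compared first with unstimulated replicate 3. The fMLP arrays and unstimulated replicate 3 also differed in sex-linked genes, although all are labelled female. Xist, the RNA that silences 1 X chromosome in females, was 9.83 to 11.12 on the fMLP arrays, against 6.88 and 6.94 on the replicate 3 arrays, and the Y-linked gene Eif2s3y was 5.36 to 6.48 on the fMLP arrays, against 9.59 and 9.83. The effect of fMLP and this difference between the samples cannot be told apart. Replicate 2 of the fMLP-stimulated knockout carried neuron genes: the mean of 8 tested neuron markers was 11.33 on it, against 7.61 to 7.71 on the other 3 fMLP arrays. The fMLP calls of the members and the counts of each list are therefore given with and without that array. Lcn2 matched the genotype labels, at 8.09 to 9.60 on the 5 knockout arrays and 13.88 to 14.16 on the 5 wild type arrays.

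The genes of the main granule enzymes were lower on the fMLP arrays than on unstimulated replicate 3. Ctsg was 10.29 and 9.28 on replicates 1 and 2 of the fMLP-stimulated knockout and 10.26 and 10.76 on replicates 1 and 2 of the fMLP-stimulated wild type, against 11.54 and 11.73 on replicate 3 of the unstimulated knockout and wild type. All 4 fMLP arrays lay below both replicate 3 arrays, and the lowest was fMLP knockout replicate 2. Mpo was 11.73 and 10.98 in fMLP knockout cells and 11.62 and 12.22 in fMLP wild type cells, against 12.62 and 12.61 on replicate 3 of unstimulated knockout and wild type. Here too no fMLP array reached either replicate 3 array, and fMLP wild type replicate 2 came nearest. Elane was 11.55 and 10.81 in fMLP knockout cells and 11.34 and 12.26 in fMLP wild type cells, against 12.79 and 12.59 on replicate 3 of unstimulated knockout and wild type. Prtn3 was 9.63 and 8.83 in fMLP knockout cells and 9.69 and 10.21 in fMLP wild type cells, against 10.43 and 10.64. Elane and Prtn3, which are neighbours in the genome, had the same extremes among the fMLP arrays, with knockout replicate 2 lowest and wild type replicate 2 highest and no overlap with replicate 3.

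The other serine protease gene did not show this separation. Prss57 was 9.28 and 8.50 in fMLP knockout cells and 9.10 and 9.64 in fMLP wild type cells, against 9.49 and 9.51 on replicate 3 of unstimulated knockout and wild type. Wild type replicate 2 with fMLP was above both replicate 3 arrays, so the groups overlapped.

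Ms4a3 had the same order of arrays at both ends. It was 9.09 and 8.30 in fMLP knockout cells and 9.22 and 9.66 in fMLP wild type cells, against 10.06 and 9.96 on replicate 3 of unstimulated knockout and wild type. Cst7 was 9.20 and 8.50 in fMLP knockout cells and 9.20 and 9.24 in fMLP wild type cells, against 9.61 and 9.62. For both genes all 4 fMLP arrays were below replicate 3, and for Cst7 the 3 fMLP arrays other than knockout replicate 2 were nearly equal. Fcnb was 11.54 and 10.68 in fMLP knockout cells and 11.57 and 11.77 in fMLP wild type cells, against 11.92 and 11.84, a separation that was narrow apart from knockout replicate 2. Igfbp4 was 9.48 and 9.21 in fMLP knockout cells and 9.48 and 9.56 in fMLP wild type cells, against 9.65 and 9.49, and the groups overlapped. Bpi lay below the median of all values on all 10 arrays, at 7.23 to 7.38 with fMLP, against 7.30 and 7.24 on replicate 3 of unstimulated knockout and wild type. It did not pass the filter and showed no separation.

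**Figure D1:**
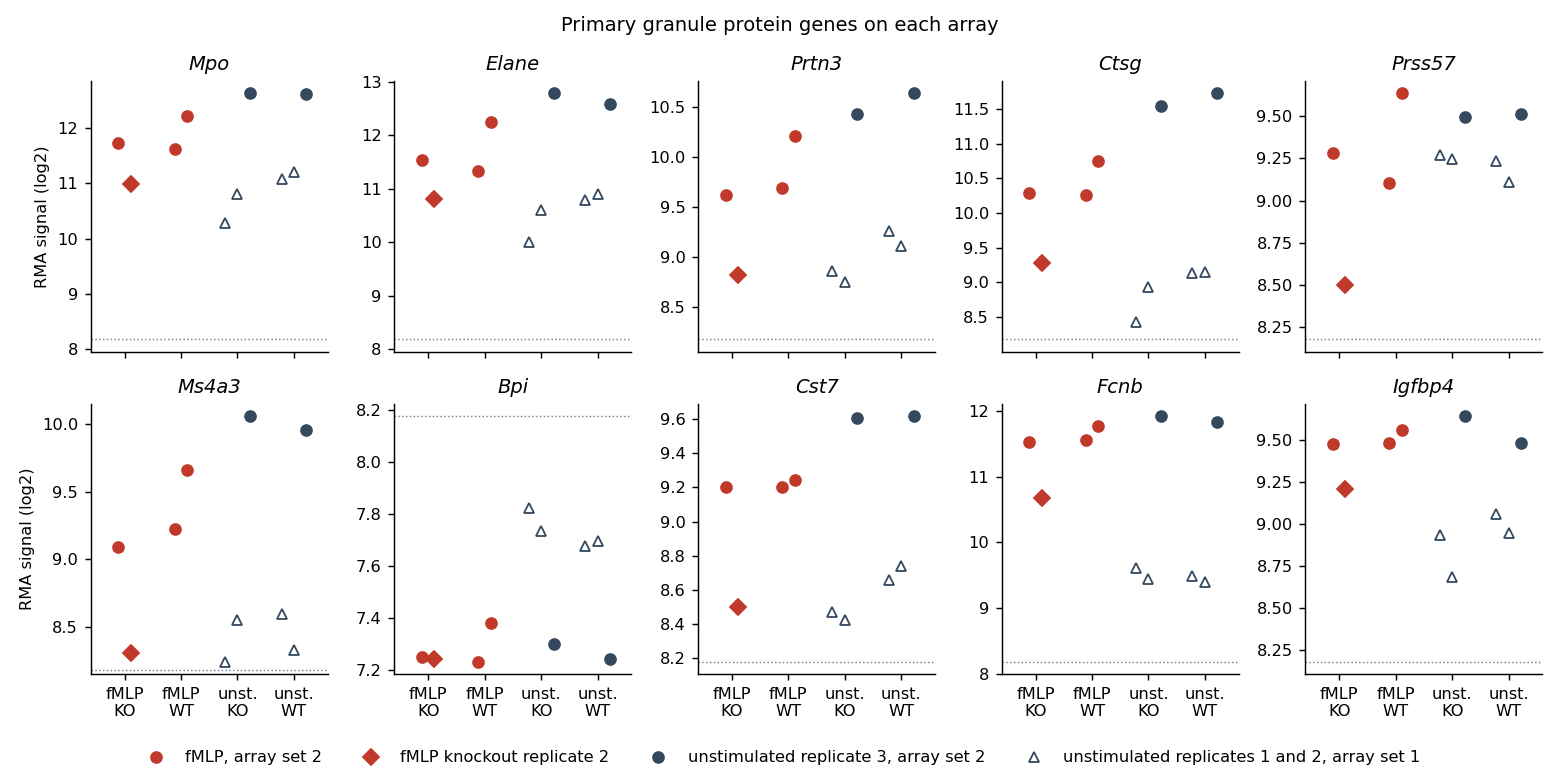
RMA signal (log2) of the 10 genes on each array, 1 point per array, with fMLP groups left of unstimulated groups and the median of all values as a dotted line. Filled points are array set 2 and open triangles array set 1. In Mpo, Elane, Prtn3, Ctsg, Ms4a3, Cst7 and Fcnb all red points lie below the 2 filled blue points, the diamond is lowest of the filled points in 9 genes, and Bpi stays under the dotted line.

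In all, 7 of the 10 members (Mpo, Elane, Prtn3, Ctsg, Ms4a3, Cst7 and Fcnb) had all 4 fMLP arrays below both replicate 3 arrays. Of all tested genes 20.2% did. Without fMLP knockout replicate 2 the same 7 members were separated, against 28.7% of tested genes. Wild type replicate 2 was the highest fMLP array in 10 of 10 members, against 26% of all tested genes. Knockout replicate 2 was the lowest of the 6 set 2 arrays in 9 members, Bpi being the exception, against 46.1% of tested genes, and it was also the lowest fMLP array in the mean level of every other list tested but the neuron genes.

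Unstimulated replicates 1 and 2 gave a different picture for level. On the 4 arrays of set 1 the unstimulated values were 10.27 to 11.20 for Mpo, 10.00 to 10.90 for Elane, 8.43 to 9.14 for Ctsg and 9.39 to 9.61 for Fcnb, all under the replicate 3 values, and 9 of the 10 members averaged higher on replicate 3 than on set 1. The gap was 2.72 for Ctsg, 2.40 for Fcnb, 2.11 for Elane and 1.77 for Mpo. Bpi went the other way, at 7.68 to 7.82 on set 1. These gaps lie between array sets of different value spread and are not read as a difference between cells. They decide the sign of the fMLP comparison: if all 3 unstimulated replicates were averaged with no term for the set, 8 of 9 tested members would be higher with fMLP, with a median difference of 0.21 and 0 called.

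The test fitted all 10 arrays with limma, with a mean for each group and a term for the array set, so the fMLP difference averaged over genotype is the one between the 4 fMLP arrays and the 2 replicate 3 arrays. Ctsg had the largest difference of the members, -1.49 (SE 0.28, adjusted p = 0.0926), a signal 0.357 times that without fMLP. The difference was -1.20 (SE 0.33, adjusted p = 0.156) for Elane, -0.98 (SE 0.27, adjusted p = 0.162) for Mpo and -0.95 (SE 0.23, adjusted p = 0.131) for Prtn3. Ms4a3 had -0.94 (SE 0.23, adjusted p = 0.135). None of these passed an adjusted p below 0.05. Cst7 had -0.58, Fcnb -0.49, Prss57 -0.37 and Igfbp4 -0.13, with adjusted p-values of 0.196 to 0.691. Without the filter Bpi differed by 0.0048, with an adjusted p of 0.987.

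With all 10 arrays, then, 0 of 9 tested members were called, although all 9 differences were below 0 and 7 had an unadjusted p below 0.05 by limma, as 2056 of the 14070 tested genes had. Of all tested genes, 27 (0.192%) were called lower and 21 (0.149%) higher. The median difference was -0.94 over the members and -0.02 over all tested genes.

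Leaving out fMLP knockout replicate 2 changed the calls. Of the 9 tested members 6 then fell, all in the same direction as before, against 3.79% of all tested genes called lower and 6.36% called higher. Ctsg fell by 1.24 (SE 0.18, adjusted p = 0.00276) and Prtn3 fell by 0.75 (SE 0.14, adjusted p = 0.0116). Ms4a3 fell by 0.74 (adjusted p = 0.0150), Cst7 fell by 0.40 (adjusted p = 0.0278), Elane fell by 1.01 (adjusted p = 0.0428) and Mpo fell by 0.79 (adjusted p = 0.0433). On the linear scale the Ctsg signal with fMLP was 0.425 times that without. Fcnb at -0.28 (adjusted p = 0.125), Prss57 at -0.18 (95% interval -0.49 to 0.14) and Igfbp4 at -0.06 (95% interval -0.33 to 0.20) did not pass. The 6 differences were smaller in size than with all arrays, and the median residual SD over genes was 0.112, against 0.163 with that array. In bulk samples such as these, fewer cells that carry an mRNA and less of it per cell cannot be told apart.

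**Figure D2:**
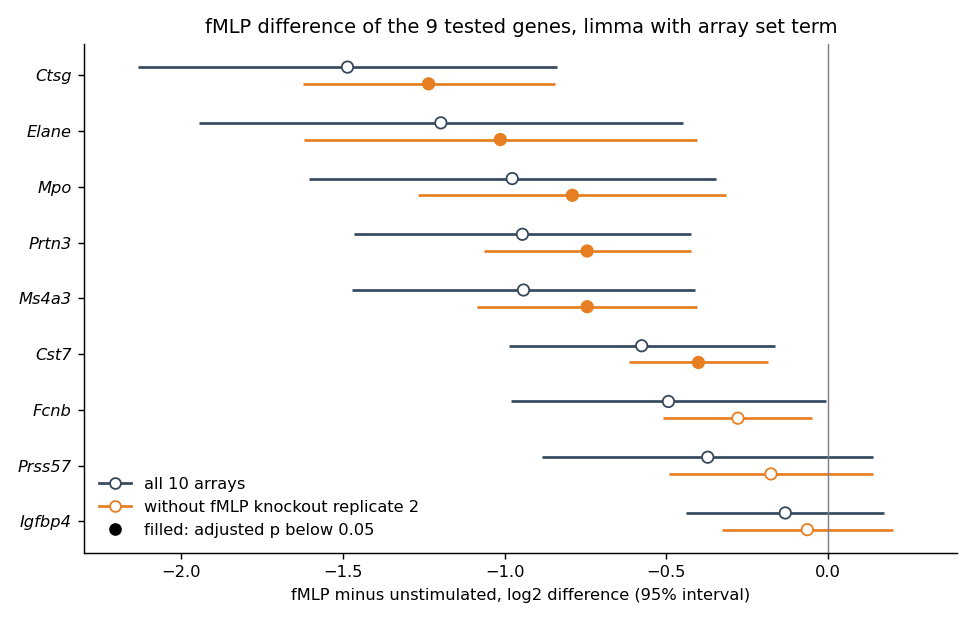
Difference between fMLP and unstimulated arrays (log2, horizontal axis) for the 9 tested genes, with 95% intervals from limma, for all 10 arrays and without fMLP knockout replicate 2; filled points are called. The 6 filled points, from Ctsg at -1.24 to Cst7 at -0.40, all belong to the fit without that array, and only the intervals of Prss57 and Igfbp4 reach 0.

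Taken by genotype, both showed lower signals with fMLP in most members, and few were called. In wild type the fMLP mean stood 0.04 above replicate 3 for Igfbp4 and 0.06 above it for Bpi. For Prss57 and Fcnb the wild type differences were small, at -0.14 and -0.17. In the knockout the replicate 3 array was set against each fMLP array: the log2 differences of fMLP replicates 1 and 2 were -1.25 and -2.26 for Ctsg, -0.89 and -1.64 for Mpo, and -1.24 and -1.98 for Elane, replicate 2 being lower each time. In wild type they were -1.47 and -0.97 for Ctsg, -0.98 and -0.39 for Mpo, and -1.24 and -0.33 for Elane, replicate 1 being lower each time. Thus replicate 1 of each genotype gave like differences, while the second replicates went in opposite directions from them.

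By limma with all arrays, 0 of 9 members were called in the knockout (0.0569% of tested genes called lower), with 7 at an unadjusted p below 0.05, and 0 of 9 in wild type (0.0355%), with 4 at an unadjusted p below 0.05. Without fMLP knockout replicate 2, Ctsg fell by 1.16 in the knockout (adjusted p = 0.0382), the 1 member called there (0.76% of tested genes called lower). In wild type Ctsg fell by 1.31 (adjusted p = 0.00670), Prtn3 fell by 0.74 (adjusted p = 0.0330) and Cst7 fell by 0.48 (adjusted p = 0.0383), so 3 members were called (1.68% called lower). The knockout is then a single fMLP array whose spread is taken from the other groups. The genotypes share 1 set term, so these limma estimates by genotype also draw on the set 1 arrays. They are not the plain differences from replicate 3 of the same genotype. In wild type the plain differences were -1.22 for Ctsg, -0.69 for Prtn3 and -0.40 for Cst7, and Igfbp4 was at 0.04, against -0.08 by limma.

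Other genes of the granule and of the cell's stage were looked at as lists. Of 17 tested genes of lysosomal enzymes and membrane proteins that primary granules also hold, 0 were called by limma with all arrays and 6 had an unadjusted p below 0.05 (4 above 0 and 13 below, median -0.22). Without fMLP knockout replicate 2, Hexa (a hexosaminidase subunit) fell by 0.57, Cd63 (a tetraspanin of the azurophil granule membrane) fell by 0.84, and Lamp2 and Lamp1 (lysosomal membrane proteins) fell, with -0.50 and -0.35, while Gla (alpha-galactosidase) rose by 1.0. The median of that list was then -0.04. Of 15 genes for processing, packaging and inhibition of granule proteins, 0 were called with all arrays and 5 had an unadjusted p below 0.05. Without that array the cathepsins Ctsl and Ctsh rose by 1.17 and 0.52 and the adaptor subunit Ap3s1, of the AP-3 complex that sorts cargo to lysosomes, fell by 0.59. Slpi and Cstb, both protease inhibitors, were at -0.29 and -0.40 and were not called.

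Markers of the other stages of neutrophil development were read on the same arrays. Secondary granule genes had 0 of 16 called with all arrays and 0 of 16 without fMLP knockout replicate 2, with medians of -0.11 and -0.03. An unadjusted p below 0.05 by limma was reached by 1 of the 16 with all arrays and by 3 without it. With all arrays that gene was Wfdc21, a secreted protease inhibitor domain protein, at -0.75 (adjusted p = 0.300). Olfm4, Hp and Itgam were at -0.46, -0.45 and -0.34, and 12 of the 16 were below 0 and 4 above. Some genes of this list had very high signals on set 2, such as Ltf at 13.83 to 14.17 and Lyz2 at 13.70 to 13.98. Whether this limits their differences was not tested. The mean level of the 16 was 12.27 to 13.01 on the fMLP arrays, a range that held both replicate 3 arrays, the lower at 12.96. The mean of the 9 tested members was 9.45 to 10.59 on the fMLP arrays, against 10.89 and 10.90 on replicate 3, with no overlap. This was not particular to the members. Progenitor genes did not overlap either, at 8.92 to 9.47, against 9.60 and 9.61. Nor did proliferation genes, narrowly, at 9.76 to 10.65, against 10.67 and 10.68. The range of the mature neutrophil genes, 11.52 to 12.59, held both replicate 3 arrays (11.83 and 11.95). Of 12 progenitor genes 0 were called with all arrays (5 at an unadjusted p below 0.05 by limma, 9 below 0, median -0.37). The 3 above 0 were Sox4, Mycn and Myc, and Sox4, at 0.43, was 1 of those 5. Without fMLP knockout replicate 2 the same 3 were above 0, and the median was -0.21. Cd34 and Prom1, both surface markers of stem and progenitor cells, fell without that array, by 0.64 and 0.46. Of 29 proliferation genes 0 were called with all arrays (10 at an unadjusted p below 0.05, 24 below 0, median -0.38), and without it 2 fell (-0.51 for Cenpf and -0.46 for Cenpe, both proteins of the centromere in dividing cells) and 1 rose. The proliferation gene that rose was Mcm3, by 0.51, and Mcm2 and Mcm7 were both at 0.37. In that fit 8 of the 29 were above 0 and 21 below, with a median of -0.20. The 12 regulators of granulocyte transcription had 0 called with all arrays, 2 at an unadjusted p below 0.05 and a median of -0.20. Among them Cebpa and Cebpb, which drive myeloid genes, were at -0.43 and 0.42, and Cbfb, the partner of RUNX proteins, was at -0.31. Without that array Lef1, a factor of early granulocyte development, rose by 0.84 and the list's median was 0.02. Of 11 mature neutrophil genes, Cd14, a coreceptor for lipopolysaccharide, rose by 2.30 (adjusted p = 0.00694), and the list's median was -0.16. Cd14 was the 1 gene of that list called with all arrays. Without fMLP knockout replicate 2 the count was 2 and the median 0.08, with Cd14 up by 2.42 and Trem1, an activating receptor, by 1.40.

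Markers of other marrow cells moved between the same arrays. Of 7 tested eosinophil genes 4 fell with all arrays and 6 without fMLP knockout replicate 2, and all 7 were below 0 (median -1.55). Epx, eosinophil peroxidase, was 8.04 and 7.49 in fMLP knockout cells and 7.80 and 8.08 in fMLP wild type cells, against 11.21 and 11.11 on replicate 3 of unstimulated knockout and wild type, a difference of -3.31 (adjusted p = 0.00131). Ear6, Prg2 and Prg3, eosinophil granule proteins, fell too, with differences of -3.17, -2.73 and -1.27. The mean level of the 7 was 8.13 to 9.02 on the fMLP arrays, against 10.57 on both replicate 3 arrays, and 1 of them lay below the median of all values everywhere. Without fMLP knockout replicate 2 the median of the list was -1.21 and Epx fell by 3.17. Monocyte genes fell in 3 of 12 cases with all arrays (-2.12 for Fn1, -2.08 for Ccr2 and -1.74 for F13a1) and in 6 of 12 without fMLP knockout replicate 2, when Ms4a6c, Mpeg1 and Adgre1 fell too, with -1.86, -0.78 and -0.81. The median of the monocyte list was -0.83 with all arrays and -0.59 without that one, with a mean level of 8.63 to 9.52, against 10.07 and 10.40. The basophil and mast cell genes Mcpt8 and Cpa3 fell, with -1.64 and -1.57, 2 of 6 tested both with all arrays and without fMLP knockout replicate 2 (-1.44 and -1.42), with a mean level of 8.55 to 9.29, against 9.65 and 9.82. Mpo, Elane and Prtn3 are also known from monocyte progenitors. The part of these cell types in the members' differences was not tested.

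Most lymphoid genes lay on the other side. With all arrays 6 of 7 T and NK cell genes were above 0, and Nkg7 was at -0.51. Of 11 B cell genes 8 were above 0, and Jchain, Igll1 and Vpreb1 were at -2.34, -0.59 and -0.34. These 3 and Cd79b were the 4 B cell genes with an unadjusted p below 0.05 by limma. T and NK cell genes had 0 of 7 called by limma with all arrays (5 at an unadjusted p below 0.05, median 0.78) and 5 rose without fMLP knockout replicate 2, among them Cd3g by 1.69 and Cd3e by 1.13, both parts of the T cell receptor complex. B cell genes had 0 of 11 called with all arrays (4 at an unadjusted p below 0.05, median 0.27), and without that array 7 rose, Cd79b of the B cell receptor by 1.05, and Jchain, of antibody-secreting cells, fell by 2.10. Of 8 erythroid genes 0 were called with all arrays (1 at an unadjusted p below 0.05) and 1, the erythroid factor Klf1, rose by 0.91 without it. Of 9 stromal and endothelial genes 0 were called with all arrays (1 at an unadjusted p below 0.05) and 1 rose without that array, with a mean level of 8.43 to 8.59 on the fMLP arrays, against 8.63 and 8.66. The 8 neuron genes had a median of 0.92 with all arrays and -0.14 without fMLP knockout replicate 2, with 0 called and 0 at an unadjusted p below 0.05 in either fit.

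**Figure D3:**
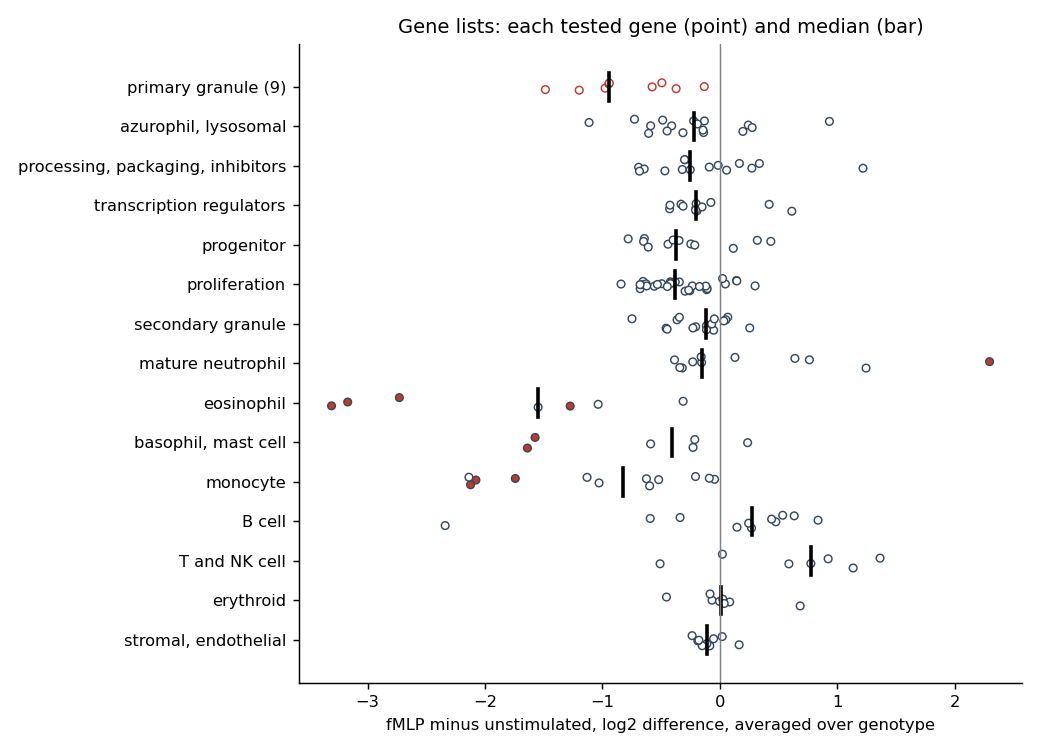
fMLP minus unstimulated difference (log2, averaged over genotype, all 10 arrays) of each tested gene of 15 lists as a point, called genes filled, with each list's median as a bar; neuron genes are not drawn. The bar of the 9 primary granule genes stands at -0.94, between the eosinophil bar at -1.55 and the monocyte bar at -0.83, and the secondary granule bar at -0.11.

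The pattern of Mpo, Elane, Prtn3 and Ctsg over the 6 arrays of set 2 was averaged, each gene centred on its mean, and every other tested gene was ranked by its root mean square distance from it. The averaged pattern was -0.30 and -1.12 on replicates 1 and 2 of the fMLP knockout and -0.37 and 0.26 on replicates 1 and 2 of the fMLP wild type, against 0.74 and 0.79 on replicate 3 of unstimulated knockout and wild type. Among the members left out of the average, Ms4a3 was nearest to it, at 0.126, a distance like those of the 4 genes themselves (0.0956 to 0.178). Fcnb, Cst7, Prss57 and Igfbp4 were farther, at 0.338, 0.343, 0.376 and 0.568.

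Among the 14061 other tested genes the nearest was Cd63, at 0.130, and it was also the nearest with the 5 arrays that leave out fMLP knockout replicate 2 (0.0896). Cd63 itself was 10.81 and 9.72 in fMLP knockout cells and 10.89 and 11.37 in fMLP wild type cells, against 11.85 and 11.77 on replicate 3 of unstimulated knockout and wild type, with all fMLP arrays below both. The next named genes were Lsm8 (an RNA-binding protein of the spliceosome, 0.158), Purb (a nucleic acid-binding protein, 0.160), Selenok (a selenoprotein of the endoplasmic reticulum, 0.165) and AA467197 (0.165). Ly96, the MD-2 partner of the lipopolysaccharide receptor, had 0.167, the microRNA gene Mir142 had 0.168, and Sptssa, a subunit of serine palmitoyltransferase, had 0.169. Since these 8 genes were chosen by their pattern over the same arrays, no test of fMLP is read from them. The distances rest on 6 arrays that share 1 low array, so they describe these arrays only.

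**Figure D4:**
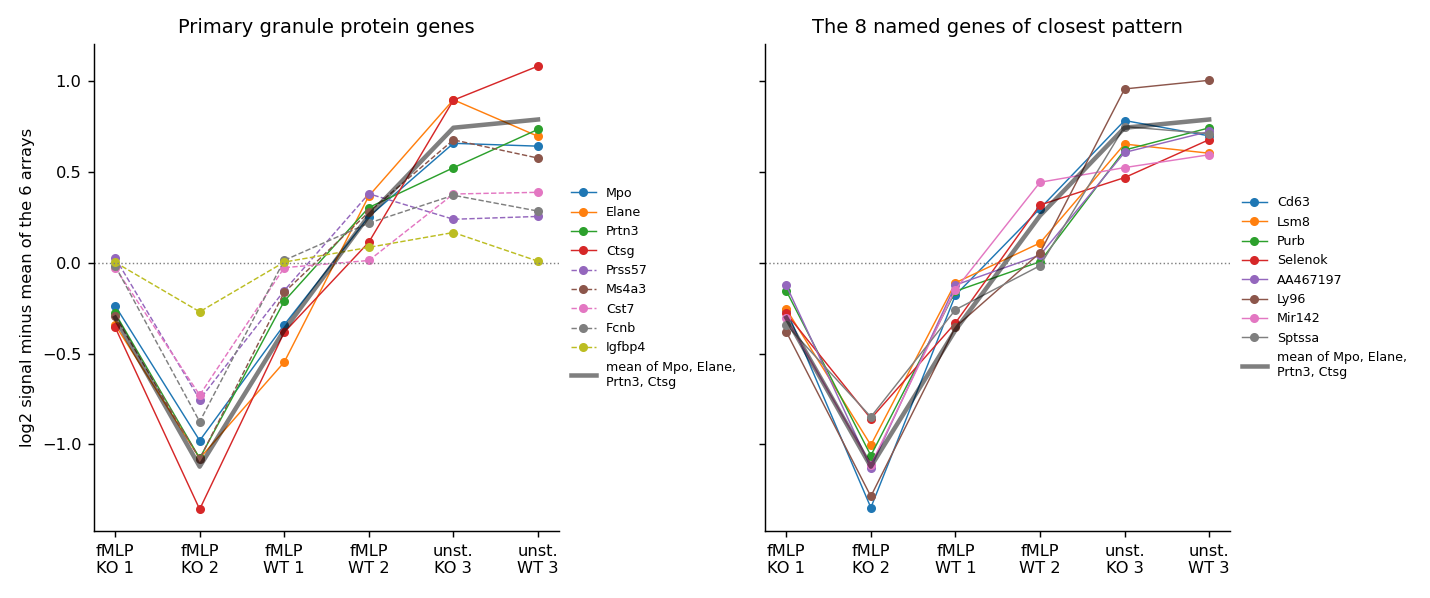
log2 signal of each gene minus its mean over the 6 arrays of set 2, fMLP arrays left of unstimulated replicate 3, for the 9 tested members (left) and the 8 named genes of closest pattern (right), with the mean of Mpo, Elane, Prtn3 and Ctsg as a thick line. The thick line is lowest on fMLP knockout replicate 2, at -1.12, and highest on unstimulated wild type replicate 3, at 0.79; Igfbp4 is the flattest member.

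The neighbours of Prss57, Prtn3 and Elane on chromosome 10 were checked, since close genes can share signal or control. Within 60 kb of the 3 genes, 12 other tested genes had differences between -0.37 (Arid3a, a DNA-binding factor) and 0.44 (Palm, a membrane-associated protein) with fMLP, and 0 were called by limma with all arrays or without fMLP knockout replicate 2 (2 and 3 at an unadjusted p below 0.05). Prss57 overlaps Fstl3 and Palm in the annotation, and Palm was 10.82 on fMLP knockout replicate 2, against 10.05 to 10.18 on the other fMLP arrays, the reverse of Prss57. That array is the one that carried neuron genes, and without it the difference of Palm was 0.29. What sets Palm apart on that array was not tested.

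No member was called between knockout and wild type without fMLP. By limma 0 of 9 tested members passed and 0 had an unadjusted p below 0.05, while 1 gene of all those tested passed (0.00711%), Lcn2 itself at -5.39 (adjusted p = 0.00266). Mpo was 10.27, 10.81 and 12.62 on replicates 1 to 3 of the unstimulated knockout and 11.07, 11.20 and 12.61 on those of unstimulated wild type, a difference of -0.39 (95% interval -0.98 to 0.20). Ctsg was 8.43, 8.94 and 11.54 in the knockout and 9.14, 9.14 and 11.73 in wild type, a difference of -0.37 (95% interval -0.98 to 0.24). Prtn3 differed by -0.32, Elane by -0.30 and Cst7 by -0.17, and the other 4 lay between -0.08 and 0.08. The intervals of Mpo and Ctsg leave room for a signal near 1 log2 unit lower in the knockout and for a small one in the other direction.

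Within array set 1 the difference was more even. Both knockout arrays lay below both wild type arrays in 6 members (Mpo, Elane, Prtn3, Ctsg, Cst7 and Igfbp4), against 13.5% of all tested genes, and above them in 2 (Prss57 and Bpi), against 15.4%. Fitted on those 4 arrays alone, Mpo differed by -0.59, Elane by -0.55, Ctsg by -0.46 and Prtn3 by -0.38, and these were the 4 with an unadjusted p below 0.05, but over all genes 0 of 9 passed the adjustment (adjusted p = 0.99992). On replicate 3 the knockout was lower in 4 of 10 members, and of the 6 members above, Elane, Igfbp4 and Mpo were not among them, at 0.20, 0.16 and 0.02 above wild type. The direction seen on the set 1 arrays was thus not repeated for 3 of the 6 on the array pair of set 2. In the fit over all 3 unstimulated replicates, secondary granule genes were below 0 in 16 of 16 cases, with a median of -0.17, equal to that of the 9 members in the same fit, and 0 were called by limma or had an unadjusted p below 0.05.

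With fMLP the knockout was lower in all 9 tested members, with a median of -0.56, and 0 were called, against 1 of all tested genes (0.00711%), again Lcn2, at -5.14 (adjusted p = 0.0189). Prtn3 and Ms4a3 reached an unadjusted p below 0.05. The largest differences were -0.75 (Ms4a3), -0.72 (Prtn3) and -0.72 (Ctsg), each with an adjusted p of 0.416. Both knockout arrays were below both wild type arrays in 5 members, Prtn3, Ms4a3, Cst7, Fcnb and Igfbp4, against 26% of tested genes. Most of the size came from 1 array: against the mean of the wild type arrays, Ctsg stood at -0.22 on knockout replicate 1 and at -1.22 on replicate 2, and Mpo at -0.19 and -0.94. Without replicate 2 the median was -0.19, all 9 stayed below 0, and 0 were called (adjusted p = 0.99995) and 0 had an unadjusted p below 0.05 by limma.

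The difference between the fMLP responses of the genotypes was tested as an interaction. With all arrays 0 of 9 members were called by limma and 0 had an unadjusted p below 0.05, against 0% of all tested genes called. All 9 values were below 0 (median -0.35, adjusted p between 0.776 and 0.889), the lowest being Ms4a3 at -0.74 and Fcnb at -0.65. Without fMLP knockout replicate 2, 4 were below and 5 above 0, with a median of 0.03. On array set 2 alone and without that array, all 9 were below 0, with a median of -0.20, so the signs also depended on whether the set 1 arrays entered the fit. For Ctsg the 95% interval without that array, over both sets, ran from -0.46 to 0.76, so it holds 0 as well as differences more than 0.4 in size in either direction.

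**Figure D5:**
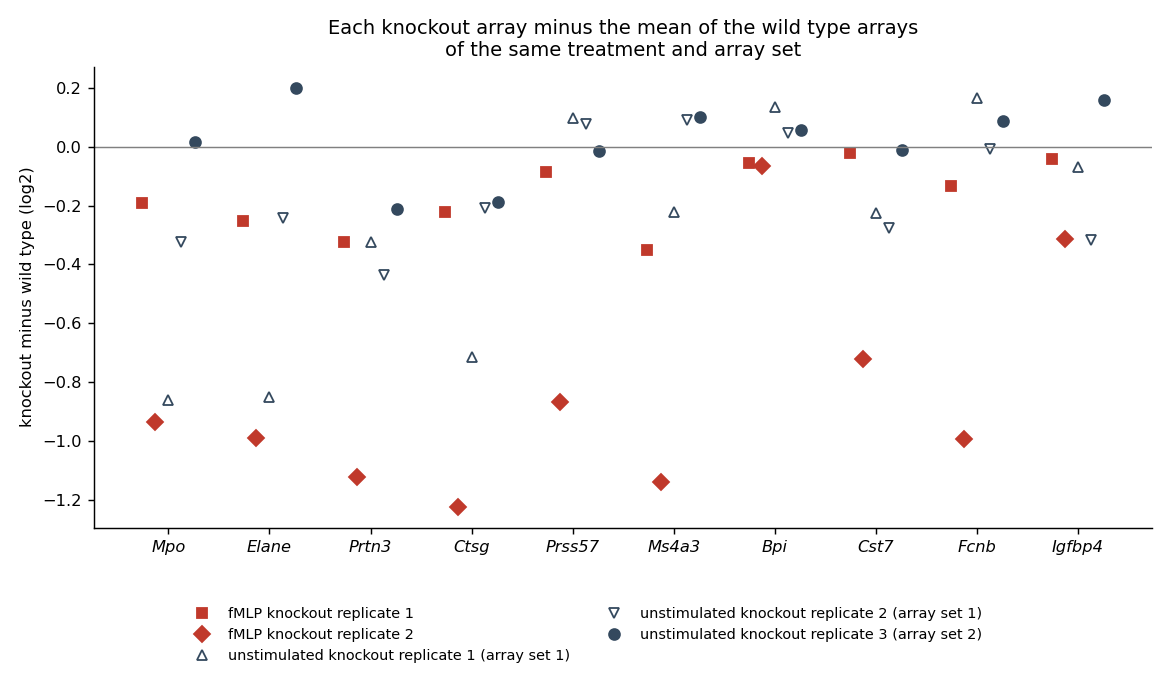
Knockout minus wild type (log2) for the 10 genes, each point 1 knockout array minus the mean of the wild type arrays of the same treatment and array set, fMLP arrays in red left of unstimulated arrays in blue. The diamonds of fMLP knockout replicate 2 lie lowest in every gene but Igfbp4, down to -1.22 in Ctsg, and in Mpo and Elane the open triangles of set 1 lie below 0 and the filled circles of replicate 3 above it.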

How the data were processed

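Total RNA of 10 samples, 100 ng each, was hybridised to Affymetrix Mouse Gene ST arrays. The values used are the log2 signals deposited by the authors, made by RMA in Affymetrix Expression Console per the submitters' processing notes; the versions and the log base are not given in the sources used here, and the base was taken as 2 from the range of the values. RMA corrects for background, gives arrays of 1 run a common distribution and combines the probes of each set into 1 value. Whether all arrays went through 1 run is not given in the sources used here, and the 2 array sets with different interquartile ranges (below or above 2) bear on every comparison across them.

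Of 35556 probe sets, 21789 name 1 gene in the array annotation, 1621 name several and 12146 name none. The RefSeq gene table holds the symbols of 21698 of the single-gene probe sets, and 0 symbols were updated. The probe set with the highest mean stood for each of 19938 genes (999 had a choice). Testing required at least 2 arrays over 8.18, the median of all values, which left 14070 genes. All 10 arrays were fitted with limma 3.58.1 (R 4.3.3), with a coefficient per group and an array set term (5 residual degrees of freedom), two-sided tests and Benjamini-Hochberg adjustment over all tested genes, called below 0.05. Precision is limited by the number of arrays: an exact permutation test of 3 arrays against 3 cannot go below p = 0.1, nor one of 2 against 2 below 0.333.

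The members and gene lists, the test and the alternatives were chosen with earlier results of these data known. Genes named were all members, Lcn2, up to 4 genes of each list with the smallest p for fMLP averaged over genotype, listed genes called in a comparison, and the 8 tested non-members nearest to the mean profile of Mpo, Elane, Prtn3 and Ctsg, predicted genes being left out. Gene positions and promoters come from RefSeq (GRCm38.p6). Alternatives were no set term, single array sets, quantile normalization, median centring, no filter or the 60th percentile (8.56), mean over probe sets, array weights, variance trend with robust moderation, a fixed or random block of the replicate number (statmod 1.5.0) and leaving out each array. Same-numbered unstimulated arrays of the genotypes deviated together (r = 0.949, 0.929 and 0.988), but replicate 3 is the set 2 array. Replicates 1 and 2 of opposite genotypes also did (r = 0.866 and 0.874). The difference of replicates 1 and 2 correlated between genotypes at 0.464 without fMLP and 0.0598 with it. The main fit did not take the numbers as pairs, so any replicate effect shared by the unstimulated genotypes stays in its spread. The fits were tested on simulated data with known differences. Figures were drawn with matplotlib 3.10.9 in Python 3.11.15.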

Additional observations from a re-analysis of the deposited data

How the results depend on the processing

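Without the array set term, fMLP is compared with all unstimulated arrays, and 8 members changed sign in the difference averaged over genotype: Mpo 0.21, Elane 0.21, Prtn3 0.079, Ctsg 0.33, Ms4a3 0.11, Cst7 0.12, Fcnb 1.10 and Igfbp4 0.31, with 0 members and 10 genes of all tested called, against 48 with the term. With the replicate number as a fixed replicate block, which takes up the set term, fMLP replicates are compared with set 1 arrays of the same number, and the same 8 members were above 0 (Mpo 0.80, Elane 0.92, Prtn3 0.59, Ctsg 1.23, Ms4a3 0.64, Cst7 0.46, Fcnb 1.90 and Igfbp4 0.53), with 8 members and 11758 genes called. That block also called 11384 genes and 8 members in wild type, 10444 genes and 3 members in the knockout, and 0 genes for knockout against wild type with fMLP. With the replicate number as a random replicate block beside the set term, 0 members were called, with Ctsg nearest (adjusted p = 0.0827).

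Array weights called 765 genes and 4 members for fMLP averaged over genotype, 3731 genes and 6 members in wild type, 5 genes in the knockout, and 2 genes for knockout against wild type without fMLP, where they also put Elane at 0.043, Ms4a3 at 0.062 and Igfbp4 at 0.083. The highest weights, 5.89, went to the replicate 3 array of each genotype, its only unstimulated array of set 2. Both fMLP knockout arrays had 0.135, so the weights did not single out the array with neuron genes. On set 2 alone 0 genes were called for fMLP averaged over genotype, in either genotype, and for genotype with fMLP. On set 2 without fMLP knockout replicate 2, an alternative chosen after seeing the data, the counts were 3119 genes and 6 members averaged, 1524 genes and 3 members in wild type, 938 genes and 3 members in the knockout, 3 genes for genotype with fMLP and 1 for the interaction. The variance trend gave 77 genes averaged and 20 in each genotype. Quantile normalization gave 4 genes in the knockout, and without the set term 1 gene was called in each genotype.

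Leaving out 1 array at a time gave 0 to 4055 genes and 0 to 8 members averaged over genotype, 0 to 724 genes and 0 to 3 members in wild type, and 0 to 5429 genes and 0 to 8 members in the knockout. It gave 0 to 1 gene for genotype without fMLP, 0 to 6401 genes and 0 to 8 members for genotype with fMLP, and 0 to 4924 genes and 0 to 6 members for the interaction. Where the fMLP knockout enters the comparison, the highest counts came without its replicate 1. This leaves the array with neuron genes as the only one of its group. For fMLP in wild type, leaving out either replicate of that group gives the same result, since the array left there is fitted exactly. For fMLP, 0 genes were called without replicate 3 of either unstimulated group. Igfbp4 ran from -0.31 to 0.043 with fMLP (above 0 without unstimulated knockout replicate 3). Between genotypes without fMLP, Ms4a3 ran from -0.084 to 0.096 and Igfbp4 from -0.19 to 0.028. Of 198 member values with fMLP under all alternatives, 157 kept direction and side of the threshold, 24 newly passed it and 17 changed sign; of 189 between genotypes without fMLP, 183 were kept and 6 changed sign. The cause was not tested beyond what each alternative's construction states.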
